A study of Homo sapiens with 6 samples.

Results

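The E2F transcription factors and the RB family of pocket proteins form the switch that decides whether a cell copies its DNA. Their RNA was compared between wild-type and YTHDF1 knockout A549 cells, a human lung adenocarcinoma line. The genes were taken by symbol: E2F1, E2F2, E2F3, E2F4, E2F5, E2F7, E2F8, RB1, RBL1 and RBL2. All 10 were found among the 60617 genes of the count table, and all 10 had enough counts to be tested, beside 18505 genes tested in all. Total RNA was sequenced from 3 wild-type libraries and 3 libraries labelled YTHDF1 knockout. The cells of both groups grew in the same medium without any treatment named in the labels. The titles call the libraries of each group biological replicates. The labels do not say whether the knockout is 1 clone, which part of YTHDF1 was edited or whether the libraries came from separate cultures. The p-values therefore measure only the spread between these libraries, which may not be the spread between independent clones.

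In a resting cell, pocket proteins hold E2F factors at promoters and keep their target genes off. Cyclin D with CDK4 or CDK6, and cyclin E with CDK2, phosphorylate the pocket proteins, E2F is released, and genes for DNA synthesis are transcribed. E2F1, E2F2 and E2F3 are known as activators and bind RB1. E2F4 and E2F5 act mainly as repressors with RBL1 (p107) and RBL2 (p130), as parts of the DREAM complex together with the MuvB proteins. E2F7 and E2F8 are atypical repressors that bind DNA without a DP partner and are not held by pocket proteins. Several of these genes, among them E2F1, E2F2 and RBL1, are themselves known to be E2F-regulated.

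Promoter sequences are shown for the 4 members with a window that holds an E2F motif and for E2F4, whose window holds none. They come from RefSeq on GRCh38.p14, whose windows run from 250 bases before to 50 bases after a transcription start. The motif searched was 1 of 4 words, TTTCCCGC, TTTCGCGC, TTTGCCGC or TTTGGCGC, on either strand. The cell cycle homology region (CHR) word TTTGAA, the element bound by MuvB, was searched in the same way. Each line gives the 120 bases before the start, 5′ to 3′ on the gene's strand, with matches to either motif in capitals. Coordinates in order are chr20:33686386-33686505 (minus strand), chr1:23531234-23531353 (minus), chr20:37095998-37096117 (minus), chr6:20401759-20401878 (plus) and chr16:67192035-67192154 (plus).
E2F1: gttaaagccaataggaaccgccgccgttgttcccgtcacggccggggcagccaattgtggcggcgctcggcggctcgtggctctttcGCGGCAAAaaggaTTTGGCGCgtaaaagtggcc
E2F2: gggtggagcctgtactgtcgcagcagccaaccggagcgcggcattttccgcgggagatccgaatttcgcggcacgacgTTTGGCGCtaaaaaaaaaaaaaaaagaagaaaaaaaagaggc
RBL1: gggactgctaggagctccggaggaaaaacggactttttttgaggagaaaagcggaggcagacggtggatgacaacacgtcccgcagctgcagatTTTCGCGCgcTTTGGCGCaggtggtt
E2F3: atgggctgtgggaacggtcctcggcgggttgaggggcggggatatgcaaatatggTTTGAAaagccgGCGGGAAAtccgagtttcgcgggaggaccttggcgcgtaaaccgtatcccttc
E2F4: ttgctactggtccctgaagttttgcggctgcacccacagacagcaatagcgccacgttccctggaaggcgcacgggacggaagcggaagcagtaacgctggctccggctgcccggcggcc

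E2F1 and RBL1 each held 2 E2F words, and E2F2 and E2F3 each held 1, for E2F3 in the window shown. A second window of E2F3, whose start lies 1708 bases inside the gene, held 0 words of either motif. Matches lay between 53 and 9 bases before the start, where position -1 is the last base before it. In E2F1 the words began at positions -33 and -20, in RBL1 at -26 and -16, in E2F2 at -42 and in E2F3 at -53, while the CHR word of E2F3 began at -65. The same search found an E2F word in 3.3% of 34943 windows and a CHR word in 15.2%. Windows of E2F4, E2F7, RB1 and RBL2 held no E2F word. RBL2 held a CHR word from base 25 after the start of its first window. The only window listed for RB1 begins transcription 172724 bases inside the gene, so it is not the promoter at the gene's annotated start. E2F5 and E2F8 have no window in the table. A match here is a string of letters and not evidence of binding.

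Library totals ran from 27238817 to 40675628 counts, so 1 count corresponded to 0.0245 to 0.0371 CPM, the count scaled to a common library size. YTHDF1 RNA was lower in the libraries labelled knockout, at 99.4 ± 3.89 CPM (SD, n = 3) in wild type and 48.1 ± 0.87 CPM (SD, n = 3) in knockout. Markers of A549 cells were abundant in every library, with summed levels of 13529 to 14386 CPM in wild type and 13324 to 13819 CPM in knockout over 10 genes. ALDH1A1, chosen after its values were seen, held the largest part, at 6070 ± 140 CPM and 5291 ± 147 CPM (SD, n = 3). ALDH1A1 was itself called lower, and in the sum the falls of some markers were set against the rises of others. Single markers did change, 6 higher and 3 lower of the 10, beside 27.2% higher and 26.3% lower among all genes tested. AKR1B10, an aldo-keto reductase gene, fell by 1.06 on the log2 scale. Of 17 markers of blood, endothelial, fibroblast and red cells, 5 (CD3E, CD3D, MS4A1, HBB and HBA1) had 0 counts in every library, and the 17 summed to between 42.6 and 47.7 CPM in wild type and between 47.0 and 49.8 CPM in knockout. Of the 5 of these markers that were tested, 2 were higher and 3 were lower, beside the same background. COL1A1, a fibroblast collagen gene, held most of the sum, at 29.8 ± 2.42 CPM and 41.9 ± 1.93 CPM (SD, n = 3). Mitochondrially encoded mRNAs took 5.76% to 5.92% of counts in wild type and 3.72% to 3.98% in knockout. All 13 fell, beside 26.3% lower among all genes tested. These values moved with the same groups as every result here, and their part in the results was not tested.

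Of the 10 family members, 2 rose (E2F4 and E2F5), 4 fell (E2F1, E2F7, E2F8 and RBL1) and 4 did not pass the test (E2F2, E2F3, RB1 and RBL2). The test was edgeR's quasi-likelihood test across all genes at an adjusted p threshold of 0.05, knockout against wild type. By this rule 53.5% of all genes tested changed, 27.2% higher and 26.3% lower, so 6 of 10 is a share near the background. The libraries of both groups did not overlap for the same 6 members, beside 58.9% of all genes. The median log2 fold change was -0.18 over the 10 members and 0.00 (0.00109) over all genes. Directions were mixed among genes of like role: the repressors E2F4 and E2F5 rose, while the repressors E2F7 and E2F8 and the pocket protein gene RBL1 fell. In these bulk libraries, a change in the share of cells in a cycle phase and a change in RNA per cell cannot be told apart.

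**Figure D1:**
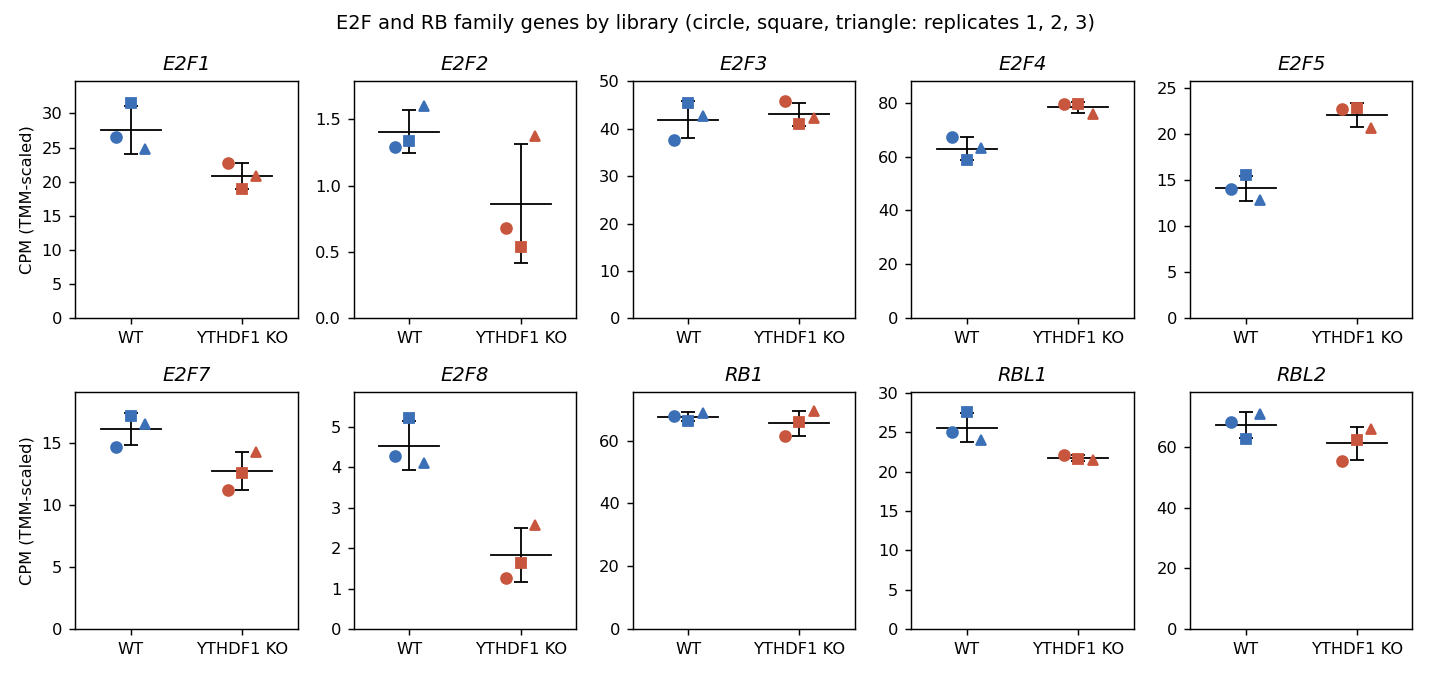
Level of each E2F and RB family gene in every library, in CPM on TMM-scaled library sizes, with each panel's axis starting at 0. Points are libraries, the horizontal line is the group mean and the bar is ± SD (n = 3). The groups do not overlap for E2F1, E2F4, E2F5, E2F7, E2F8 and RBL1, and they overlap for E2F2, E2F3, RB1 and RBL2.

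Among the activators, E2F1 fell. This gene, on chromosome 20 from 33675683 to 33686404 (minus strand, GRCh38, GENCODE 29), encodes the founding member of the family. Wild-type libraries held 26.5, 31.5 and 24.8 CPM, and knockout libraries held 22.7, 18.9 and 20.8 CPM. All 3 knockout libraries lay below the lowest wild-type library, and wild-type replicate 2 was the highest of the 6. E2F1 fell by 0.40 on the log2 scale (SE 0.0877, 95% interval -0.58 to -0.23), with an adjusted p of 0.000203. That fold, 1.32 times more in wild type, ranked above 54.3% of all genes tested by absolute size.

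E2F2 was the least abundant member and did not pass the test. The gene is at 23506430 to 23531220 of chromosome 1 (minus strand). Its counts were 49, 36 and 64 in the wild-type libraries and 22, 22 and 56 in the knockout libraries, or 1.29, 1.34 and 1.60 CPM against 0.681, 0.539 and 1.38 CPM. Knockout replicate 3 lay inside the wild-type range and the other two knockout libraries lay below it. The log2 fold change was -0.70 (SE 0.352, 95% interval -1.41 to 0.02) with an adjusted p of 0.0971. Without knockout replicate 3 it was -1.21 with an adjusted p of 0.0126. Over the alternatives that tested for any change, the adjusted p ranged from 0.0126 to 0.361. With a fold of 1.5 built into the test, a different question, it was 0.671.

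E2F3 showed no difference beyond its spread. The gene is at 20401906 to 20493715 of chromosome 6 (plus strand) and produces a pair of main isoforms from separate starts, which gene counts do not separate. Its level was 37.6, 45.5 and 42.7 CPM in wild type and 45.8, 41.1 and 42.3 CPM in knockout, and the groups overlapped throughout. The log2 fold change was 0.04 (95% interval -0.10 to 0.18) with an adjusted p of 0.668. Of the 3 activators, E2F1 was thus the gene past the threshold, but the difference between the changes of E2F1 and E2F3 was not tested.

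The repressors E2F4 and E2F5 both rose. E2F4, an E2F found at high levels in many resting and cycling cells, is at 67192169 to 67198918 of chromosome 16 (plus strand). Its level was 67.2, 58.6 and 63.1 CPM in wild type and 79.4, 79.6 and 75.7 CPM in knockout. Every knockout library exceeded every wild-type library. E2F4 rose by 0.31 on the log2 scale (SE 0.0554, 95% interval 0.20 to 0.42), a 1.24-fold rise with an adjusted p of 1.36e-05.

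E2F5, which pairs chiefly with RBL2, rose more. The gene is at 85177225 to 85217158 of chromosome 8 (plus strand). Its level was 14.0, 15.5 and 12.8 CPM in wild type and 22.7, 22.8 and 20.6 CPM in knockout, with a wide gap between the groups. The rise was 0.65 (SE 0.0906, 95% interval 0.47 to 0.83), or 1.57-fold, with an adjusted p of 2.28e-07. In GENCODE 29, 18.6% of the exonic bases of E2F5 overlap genes on the opposite strand, RBIS among them. Whether counting used strand was not stated, and the level of E2F5 is uncertain for that reason. RBIS itself had a log2 fold change of -0.17 with an adjusted p of 0.263.

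The atypical repressors E2F7 and E2F8 both fell, and E2F8 had the largest change of the 10 members. E2F8 is at 19224063 to 19241620 of chromosome 11 (minus strand). Its counts were 162, 141 and 164 in wild type and 41, 67 and 105 in knockout, or 4.27, 5.23 and 4.10 CPM against 1.27, 1.64 and 2.58 CPM. No knockout library reached the wild-type range, although the knockout libraries differed among themselves and replicate 3 was the highest. E2F8 fell by 1.29 on the log2 scale (SE 0.223, 95% interval -1.74 to -0.83), so wild type held 2.44 times more, with an adjusted p of 9.27e-06. Its absolute change exceeded that of 91.4% of all genes tested.

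E2F7 is at 77021247 to 77065580 of chromosome 12 (minus strand). E2F7 stood at 14.7, 17.2 and 16.5 CPM in wild type and 11.2, 12.6 and 14.3 CPM in knockout. The groups did not overlap, but knockout replicate 3 came close to wild-type replicate 1. E2F7 fell by 0.33 (SE 0.102, 95% interval -0.54 to -0.13) with an adjusted p of 0.00619. Without knockout replicate 1 the change was -0.25 with an adjusted p of 0.0505. Over the alternatives that tested for any change, the adjusted p of E2F7 ranged from 0.00235 to 0.0505. E2F7 was not called with a fold of 1.5 built into the test, which asks whether the change exceeds that fold.

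Among the pocket proteins, RBL1 fell, while RB1 and RBL2 did not pass the test. RB1, the retinoblastoma tumour suppressor gene, is at 48303726 to 48599436 of chromosome 13 (plus strand). Its level was 67.7, 66.2 and 68.9 CPM in wild type and 61.5, 65.9 and 69.5 CPM in knockout, and the knockout libraries spanned the wild-type range on both sides. The log2 fold change was -0.04 with a 95% interval of -0.16 to 0.07 and an adjusted p of 0.542.

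RBL1, which encodes p107 and is at 36996349 to 37095995 of chromosome 20 (minus strand), stood at 25.1, 27.6 and 24.1 CPM in wild type and 22.1, 21.5 and 21.5 CPM in knockout. The knockout libraries were close together and all below wild type. RBL1 fell by 0.23 (SE 0.0783, 95% interval -0.39 to -0.07) with an adjusted p of 0.0124. Without wild-type replicate 2 it was -0.18 with an adjusted p of 0.0772. The range over the alternatives that tested for any change was 0.0101 to 0.0772. RBL1 was not called with a fold of 1.5 built into the test, a different question.

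RBL2, which encodes p130, is at 53433977 to 53491649 of chromosome 16 (plus strand). Its level was 68.4, 62.6 and 71.1 CPM in wild type and 55.3, 62.5 and 66.0 CPM in knockout, and the groups overlapped. The log2 fold change was -0.14 (95% interval -0.26 to -0.01) with an adjusted p of 0.0603. The adjusted p was 0.0167 without wild-type replicate 2 and 0.0216 without knockout replicate 3. It ranged from 0.0167 to 0.372 over the alternatives that tested for any change. RBL2 was also not called with a fold of 1.5 built into the test, a different question. Exons of RBL2 overlap opposite-strand genes, AKTIP among them, over 18.2% of their bases, so its level is uncertain, and AKTIP fell by 0.29.

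**Figure D2:**
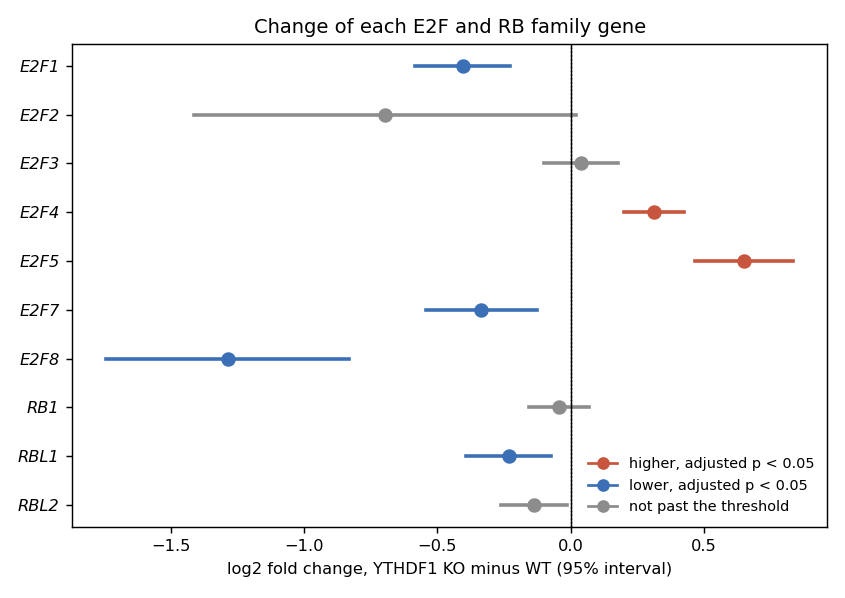
Log2 fold change of each family gene, knockout minus wild type, with the 95% interval of the edgeR fit as a bar. E2F4 and E2F5 lie to the right of 0, E2F1, E2F7, E2F8 and RBL1 to the left, and the genes in grey did not pass the adjusted p threshold. The dotted line is the median of all genes tested, 0.00109, and lies next to 0.

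Levels of different genes were compared per kilobase of exon, the CPM divided by the length of the union of annotated exons. E2F4 led the families in both groups, at 17.6 ± 1.20 CPM per kb in wild type and 21.8 ± 0.613 in knockout (SD, n = 3). In wild type it was followed by E2F1 (11 ± 1.40 CPM per kb), RB1 (10.5 ± 0.213), RBL2 (9.20 ± 0.589), E2F3 (8.13 ± 0.774), RBL1 (4.29 ± 0.308), E2F7 (2.56 ± 0.207), E2F5 (2.38 ± 0.225), E2F8 (1.10 ± 0.148) and E2F2 (0.258 ± 0.0303). Neighbours whose libraries overlapped were E2F1 with RB1, RBL2 with E2F3, and E2F7 with E2F5. In knockout the order was E2F4, RB1, RBL2, E2F3, E2F1, E2F5, RBL1, E2F7, E2F8 and E2F2. There the libraries of RBL2 and E2F3, of E2F3 and E2F1, and of E2F5 and RBL1 overlapped. Among the 10 members, E2F1 thus moved from rank 2 to rank 5 and E2F5 from rank 8 to rank 6. E2F6 was not ranked. With the longest transcript as the length, E2F1 had rank 4 in wild type, so its place depends on the length used.

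Within the sum of the 7 E2F members, E2F4 and E2F5 made up a larger share in knockout, and E2F1, E2F7 and E2F8 a smaller one. E2F6, at 40.9 ± 2.20 CPM in wild type and 55.8 ± 2.95 CPM in knockout (SD, n = 3), is not in this sum. Including it would raise the sum more in knockout than in wild type and lower every share given here. The sum over the 7 E2F members was 42.6, 44.6 and 41.9 CPM per kb in wild type and 46.1, 44.1 and 44.2 in knockout, and the groups overlapped. That overlap holds for the 7 members only, and with E2F6 added the groups need not overlap. E2F1, E2F2 and E2F3 together made up 42.5%, 48.6% and 44.1% of that sum in wild type and 39.1%, 35.4% and 37.9% in knockout. E2F4 and E2F5 together made up 49.6%, 42.5% and 47.2% in wild type and 56.3%, 59.1% and 55.6% in knockout. The groups did not overlap for either share, but within the first the shares of E2F2 and E2F3 overlapped, and the lower share lay in E2F1. The atypical pair E2F7 and E2F8 made up 7.89%, 8.94% and 8.62% in wild type and 4.53%, 5.44% and 6.54% in knockout, again without overlap.

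Shares within a library do not depend on how libraries are scaled. The share of E2F1 alone was 25.6 ± 2.38% in wild type and 18.5 ± 1.26% in knockout (SD, n = 3), and that of E2F4 was 40.9 ± 3.83% and 48.7 ± 1.45%. The ratio of E2F4 to E2F1 was 1.77, 1.30 and 1.78 in wild type and 2.44, 2.94 and 2.54 in knockout. Each knockout library had a higher ratio than each wild-type library. The share of E2F3 hardly differed, at 18.9 ± 1.53% and 18.6 ± 0.588%, and its libraries overlapped.

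The RB family kept nearly the same makeup. Its summed level was 24.0, 23.5 and 24.4 CPM per kb in wild type and 20.8, 22.4 and 23.4 in knockout, where the highest knockout library lay just under the lowest wild-type library. RB1 made up 43.6%, 43.7% and 43.7% of the sum in wild type and 45.8%, 45.6% and 46.0% in knockout, a small shift without overlap, although the level of RB1 itself overlapped. RBL1 made up 17.9 ± 1.66% and 16.5 ± 1.24%, and RBL2 made up 38.4 ± 1.68% and 37.7 ± 1.18% (SD, n = 3), with overlap in each case. No test was run on shares or ratios.

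**Figure D3:**
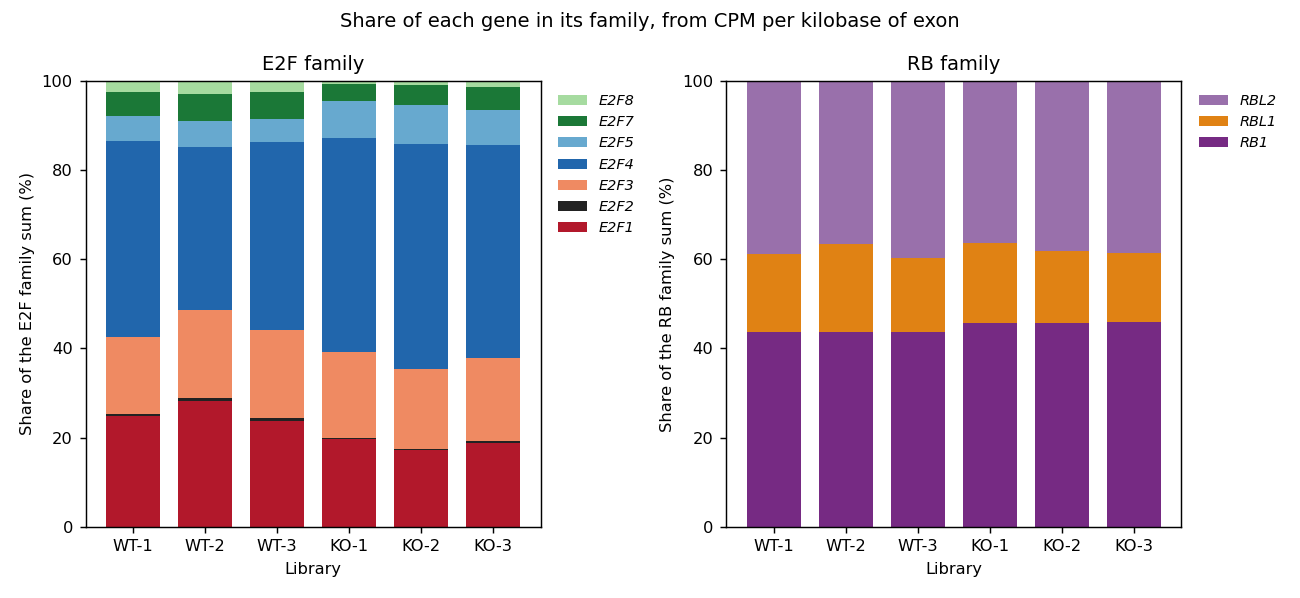
Share of each gene in the summed level of its family, in percent, in each library, from CPM per kb of exon. The E2F sum does not include E2F6. In the E2F panel the segment of E2F1 is smaller and that of E2F4 larger in the 3 knockout libraries, and in the RB panel RB1 is at 43.6% to 43.7% in wild type and 45.6% to 46.0% in knockout.

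The other E2F and DP genes moved in different directions. E2F6, a repressor that does not bind pocket proteins, was 38.4, 41.9 and 42.5 CPM in wild type and 58.6, 56.1 and 52.7 CPM in knockout, and it rose by 0.45 (adjusted p 2.13e-07). The DP proteins are the partners with which E2F1 to E2F6 bind DNA. TFDP1 was 112, 115 and 111 CPM in wild type and 94.8, 98.7 and 92.0 CPM in knockout, and it fell by 0.25 (adjusted p 4.64e-05). TFDP2 was 54.9, 56.8 and 61.1 CPM in wild type and 41.0, 41.0 and 41.5 CPM in knockout, and it fell by 0.49 (adjusted p 2.12e-08). TFDP3 had 0 counts in every library. The 3 genes that were tested thus all changed without overlap between the groups, 1 higher and 2 lower, where 53.5% of all genes changed and 58.9% had groups without overlap.

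Of 9 genes for the MuvB core and the factors that join it, 1 rose and 3 fell, beside 27.2% higher and 26.3% lower among all genes, with a median log2 fold change of -0.18. MuvB is the core that pocket proteins and E2F4 turn into a repressor and that MYBL2 and FOXM1 turn into an activator of mitotic genes. MYBL2 was 59.4, 64.7 and 56.9 CPM in wild type and 15.7, 14.5 and 18.9 CPM in knockout, and it fell by 1.88 (SE 0.0793, adjusted p 6.63e-20). FOXM1 fell by 1.18 from 77.7 ± 0.988 to 34.3 ± 3.85 CPM (SD, n = 3), with exons that overlap an opposite-strand gene over 15.9% of their bases. MYBL1 fell by 0.33 from 25.0 ± 2.81 to 19.8 ± 2.56 CPM. LIN52, the MuvB subunit whose phosphorylation by DYRK1A assembles DREAM, rose by 0.84 from 8.12 ± 1.06 to 14.7 ± 1.31 CPM. The other core genes LIN9, LIN37, LIN54 and RBBP4, and DYRK1A itself, did not pass the test, with log2 fold changes between -0.19 and 0.16. LIN37 stood at only 1.93 ± 0.466 CPM in wild type. Opposite-strand genes overlap 41.8% and same-strand genes 26.7% of its exonic bases, so its level is uncertain. For RBBP4 the opposite-strand overlap is 18%.

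Upstream of the pocket proteins, 5 of 14 tested genes rose and 5 fell, with a median of 0.10, beside 27.2% higher and 26.3% lower among all genes. The list holds cyclins, CDKs, CDK inhibitors and the F-box protein gene SKP2. CDKN1A, which encodes the CDK inhibitor p21, was 126, 131 and 122 CPM in wild type and 446, 495 and 474 CPM in knockout, and it rose by 1.91. CCND3, a D-type cyclin gene, rose by 1.16 from 82.6 ± 1.80 to 184 ± 3.80 CPM (SD, n = 3). CDK6, a partner of D-type cyclins, was 194, 186 and 194 CPM in wild type and 73.2, 83 and 90.8 CPM in knockout, and it fell by 1.21. CDKN2C, which encodes an inhibitor of CDK4 and CDK6, fell by 1.16 from 23.9 ± 1.39 to 10.6 ± 1.48 CPM.

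Other upstream genes that passed the test were chosen after their values were seen. CDKN1B rose by 0.47, SKP2, which targets the CDKN1B protein for degradation, rose by 0.27, and CCND1 rose by 0.15 with overlapping groups. CCNE1 fell by 0.58 and CCNA2 fell by 0.56, both cyclins of CDK2. CDK4 fell by 0.49, with 43.2% of its exonic bases overlapped by an opposite-strand gene, so its level is uncertain. CDKN2A and CDKN2B, a locus that A549 cells are known to have lost, had 0 counts in all 6 libraries, where 3 counts would be 0.0735 to 0.111 CPM. CCND2 also had 0 counts in all 6.

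Among 14 corepressors and chromatin partners of RB, 5 rose and 5 fell, beside 27.2% and 26.3% of all genes, and the summed level was nearly identical, at 1063 to 1069 CPM in wild type and 1063 to 1070 CPM in knockout. HDAC3, a histone deacetylase, rose by 0.53 from 25.3 ± 1.35 to 36.4 ± 3.71 CPM (SD, n = 3). ARID4B, a subunit of the SIN3 complex, rose by 0.39, and KDM5A, a histone demethylase found through its binding to RB1, rose by 0.29. SMARCA2, a chromatin remodeller ATPase, fell by 0.43 from 73.4 ± 2.43 to 54.5 ± 4.01 CPM. ARID4A and SIN3B also rose, and HDAC1, CTBP1, CTBP2 and SUV39H1 also fell, all 6 chosen after their values were seen. Opposite-strand genes overlap CTBP2 over 34.7% and SUV39H1 over 20.3% of their exonic bases, so both are uncertain. The count of 5 risers was 3 without wild-type replicate 2 and 3 without knockout replicate 2.

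Genes known as E2F targets at the start of S phase fell in most cases: 45 of 53 were lower and 1 was higher, beside a background of 26.3% lower. Their median log2 fold change was -0.67. The list summed to 2801, 2970 and 2787 CPM in wild type and 2063, 1876 and 2038 CPM in knockout, well apart. MSH6, a mismatch repair gene, fell by 1.30 from 181 ± 2.25 to 73.7 ± 3.52 CPM (SD, n = 3), with 16.2% of its exonic bases overlapped by an opposite-strand gene. MCM6, a subunit of the replicative helicase, fell by 1.5, and TK1, a thymidine kinase gene, fell by 1.22. PCNA, chosen after its values were seen, was the gene that rose. This list was written with earlier results of these data known, so its direction is not independent evidence.

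Mitotic genes of the DREAM and MYBL2-FOXM1 programmes were lower for 36 of 38 genes, beside 26.3% of all genes, with a median of -0.94. This list too was written with earlier results known. Their sum was 2938, 3062 and 2961 CPM in wild type and 1505, 1454 and 1585 CPM in knockout. The genes with the smallest adjusted p were TOP2A, MKI67, KIF23 and BIRC5. The 2 genes that did not pass, chosen after their values were seen, were ECT2, a regulator of cell cleavage with a log2 fold change of 0.02, and NUSAP1, a spindle protein gene with 0.00374. NUSAP1 stood at only 0.552 ± 0.264 CPM in wild type, and 62.2% of its exonic bases are shared with a second same-strand gene, which leaves its count uncertain.

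The target lists held different promoter words. An E2F word stood in a window of 26 of 45 S-phase target genes with a listed window (57.8%), and of 2 of 33 mitotic genes (6.06%), beside 3.99% of 27305 genes with windows. A CHR word stood in 5 of the 45 (11.1%) and in 24 of the 33 (72.7%), beside 18.2% of all genes with windows. Both backgrounds include genes that were not tested, whereas every gene of the 2 lists was tested, so they are not a like comparison. Among tested genes with a window, 767 held an E2F word and 11513 did not, and 1703 held a CHR word. Among the family members with a window, 4 of 8 held an E2F word and 2 of 8 held a CHR word. These shares describe the lists, which were written partly from knowledge of such sites.

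Apoptosis genes known as E2F1 targets went the other way from E2F1 RNA, with 7 of 8 higher, beside 27.2% higher among all genes. As with the lists above, this list was written with earlier results of these data known, so its direction is not independent evidence. The gene that did not pass, APAF1, had a log2 fold change of 0.13; it was picked once its value was known. Among the 7, TP73, also picked this way, had 11, 4 and 9 counts in wild type and 6, 25 and 40 in knockout, with overlapping groups and an adjusted p of 0.0372. The count of genes higher was 6 with DESeq2, with the replicate block, with a filter of 1 CPM in 3 libraries and at a threshold of 0.01. PMAIP1, which encodes NOXA, was 10.3, 11.6 and 8.92 CPM in wild type and 61.7, 72.8 and 69.1 CPM in knockout, a rise of 2.74. BBC3, which encodes PUMA, rose by 1.27 from 17.6 ± 2.36 to 42.8 ± 2.78 CPM (SD, n = 3). CASP8, a caspase that starts apoptosis, rose by 0.96. PMAIP1 and BBC3 are also known p53 targets.

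**Figure D4:**
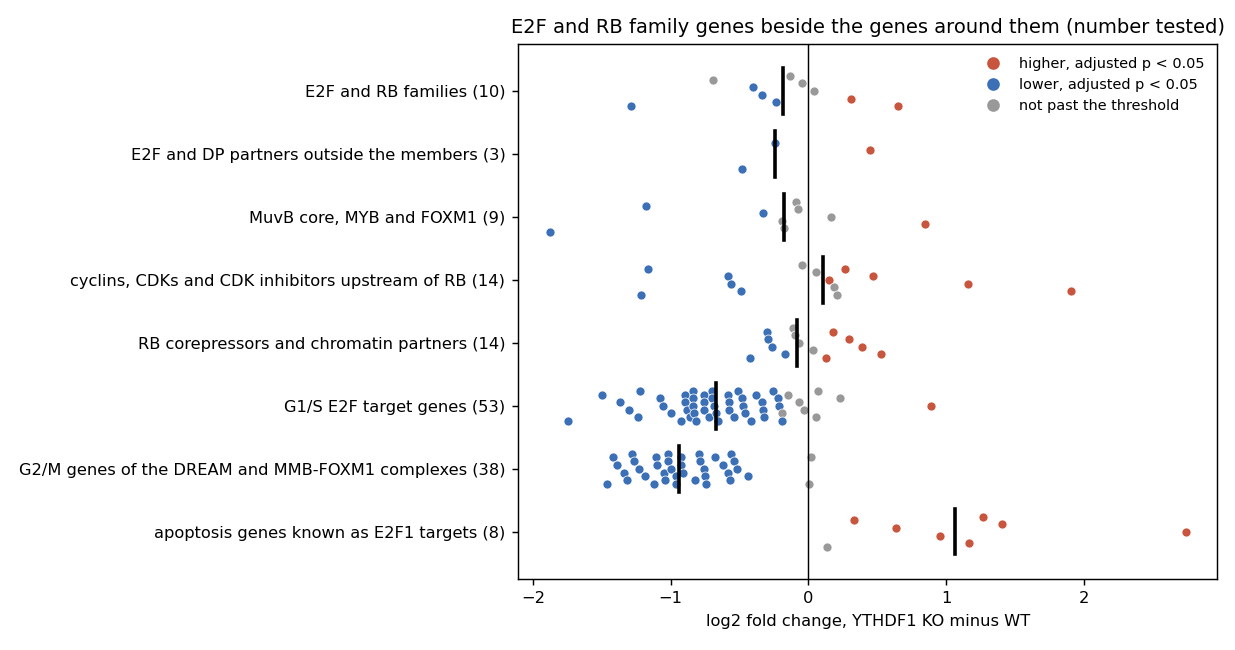
Log2 fold change, knockout minus wild type, of each tested gene in the E2F and RB families and in 7 lists around them, with the number tested in brackets. Each point is a gene coloured by its call at an adjusted p of 0.05, and the black bar is the median. The family members spread from -1.29 to 0.65, while the medians of the S-phase and mitotic lists lie at -0.67 and -0.94.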

How the data were processed

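RNA of 3 wild-type and 3 YTHDF1 knockout A549 libraries, made with a stranded kit per the labels' protocols, was analysed. The authors deposited raw counts per Ensembl gene. The submitters' processing notes name Trim Galore 0.6.6, STAR 2.7.0d, featureCounts 2.0.1, edgeR 3.32.1 and GRCh38. Annotation, strand setting and treatment of multi-mapped reads: not given in the sources used here. Symbols came from a gene name table and GENCODE 29, which also gave coordinates and exon lengths and may differ from the authors' annotation.

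The test across genes used edgeR 4.0.16 (R 4.3.3): filterByExpr by group, TMM factors, and the two-sided quasi-likelihood test with genotype as the only term, with Benjamini-Hochberg adjustment over 18505 genes. Each SE is the absolute log2 fold change over the root of its F statistic. Intervals cover 95%. The code was tested on simulated data.

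Members, lists, tests and alternatives were chosen with earlier results of these data known. The rule named all 10 members, YTHDF1, and from each list up to 4 genes with the smallest adjusted p. Some results under this rule are not reported here. No value was imputed. Libraries of a group differed by more than counting noise (chi-square per degree of freedom 4.40 to 6.55) and were kept separate. Alternatives were DESeq2 1.42.0, RLE factors, library size only, 2 other count filters, a replicate block, leaving out each library, a threshold of 0.01, a fold of 1.5 built into the test, and other lengths. No set test was run. No protein sequences were used here.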

Additional observations from a re-analysis of the deposited data

How the results depend on the processing

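E2F8 kept its direction and call under all 14 alternatives, and E2F4, E2F5 and E2F1 kept theirs under 13, all but the test with a fold of 1.5 built in. E2F3 changed sign to -0.0358 without wild-type replicate 1 and to -0.00402 without knockout replicate 1, and RB1 changed sign to 0.00189 without knockout replicate 1; neither gene was past the threshold in any of the 14. With a library left out, E2F3 ranged from -0.0358 to 0.0949 and RB1 from -0.0830 to 0.00189. RBL1 was also not called at a threshold of 0.01. Leaving out each library gave 2 members higher in every case and 3 to 6 lower; the 6 came without knockout replicate 3.

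With a fold of 1.5 built into the test, 2585 genes were called, 1573 higher and 1012 lower, and of the members 0 were higher and 1, E2F8, lower. In that test the counts were 0 higher and 0 lower for E2F and DP partners and for RB corepressors, 2 and 2 for cyclins, CDKs and inhibitors, 21 lower for S-phase targets, 4 higher for apoptosis genes, 0 higher and 1 lower for A549 markers, 0 higher for markers of other cell types and 4 lower for mitochondrially encoded mRNAs.

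RB corepressors had 3 genes higher with DESeq2, with no filter on low counts and at a threshold of 0.01, and 3 to 4 when a library was left out. Markers of other cell types had 1 higher with DESeq2, with the replicate block and at a threshold of 0.01, and 1 to 2 when a library was left out, the lower count without knockout replicate 2. S-phase targets had 1 to 2 higher, the 2 without wild-type replicate 2.

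Replicate numbers are shared between the groups, but nothing says that they pair. Deviations from the group means correlated at -0.0357, -0.0195 and 0.0327 for replicates 1, 2 and 3, and not every library correlated best with its own number. With the replicate block, 9703 genes were called in place of 9893, with 2 members higher and 4 lower.

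With the longest transcript as length, 12 of 20 group levels per kilobase and 13 of 20 shares moved by more than the spread between libraries, and with plain counts 16 of 20 shares did. The same 6 members had shares without overlap between the groups under all 3 scalings: E2F1, E2F4, E2F5, E2F7, E2F8 and RB1. Each scaling treats a gene alike in every library, so this agreement is not an independent check. No such count over all genes exists for family shares, while for levels 58.9% of all genes tested had groups without overlap. Shares within a family also depend on each other, and the level of RB1 itself overlapped. E2F2 had 22 to 64 counts per library, and 1 count there was 0.0245 to 0.0371 CPM.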

Other observations

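Across the whole table, genes whose promoter window holds an E2F word were compared with the other genes that have a window. Of 767 tested genes with a word, 279 (36.4%) were lower and 188 (24.5%) higher in knockout, with a median log2 fold change of -0.05. Of 11513 tested genes with a window and no word, 3374 (29.3%) were lower and 3540 (30.7%) higher, with a median of 0.00417. The genes with an E2F word include 26 genes of the S-phase list, which was written with earlier results known. The 1703 tested genes with a CHR word split into 543 lower (31.9%) and 528 higher (31.0%). No share was computed for genes with a window and no CHR word. These are counts without a test, and a word in a window is not a measured binding site.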
